A study of Mus musculus with 2 samples.

Results

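The cells described here are blood capillary endothelial cells of the mouse temporomandibular joint (TMJ) marked by RNA of Car4, a carbonic anhydrase on the surface of capillaries, Gpihbp1, which carries lipoprotein lipase to the lumen of the vessel, and Timp4, taken as a sum, so that a member need not hold each of them. They were chosen on their own measured UMIs (unique molecular identifiers, which count captured RNA molecules). A cell was kept when it held at least 500 genes, at most 10% mitochondrial UMIs and at most 1% hemoglobin UMIs. A kept cell was a member when Pecam1, Cdh5, Kdr and Flt1, which mark endothelium, summed to at least 3 UMIs and Ptprc, which marks leukocytes, was at 0. In addition, the venular genes Selp, Ackr1 and Plvap had to sum to under 3 UMIs, the arterial genes Gja5, Sema3g, Stmn2 and Hey1 to under 2, and Car4, Gpihbp1 and Timp4 to at least 2. Members numbered 1011 of 6681 kept cells and 13380 deposited barcodes, with 404 from the PBS library and 607 from the CFA library.

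The study used single-cell RNA sequencing to catalog the cells of the TMJ in inflammatory osteoarthritis with pain. Joints of WT female mice of strain C57BL/6 (C57BL/6J in the methods), 8 to 10 weeks old per the labels and 8 at the injection per the methods, received PBS, the vehicle, or CFA (complete Freund's adjuvant, an oil emulsion with killed mycobacteria), and were collected 3 weeks after the injection. Each condition had 1 library. The condyle and disc were digested along with adjoining temporal bone, ligament and muscle, and CD45+ leukocytes were reduced with magnetic beads, so the cells represent a leukocyte-depleted suspension of the joint region. The study reports that immune cells remained, at a higher share in CFA than in PBS. The methods give n = 3 and 1 digestion tube per group, and whether a library pooled 3 animals is not stated. With 1 library per condition no p-value was possible, and every difference between PBS and CFA below is a difference between those libraries with no replicate check. Intervals in parentheses are 95% intervals that cover counting error only, exact Clopper-Pearson for shares of cells, exact Poisson for sums of UMIs and exact conditional for ratios of levels. Those for ratios of shares are approximate, from a normal approximation on the log scale.

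Capillary endothelial cells of the continuous type line the exchange vessels of muscle, fat and joint tissue. They take up fatty acids through Cd36 and Fabp4, pass water through Aqp1 and sit on a basement membrane of collagen IV and laminin. They also answer interferon-gamma, which induces guanylate-binding proteins, immunity-related GTPases and the machinery that presents peptides on MHC class I.

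The PBS library held 7671 barcodes with 51146169 UMIs and the CFA library 5709 barcodes with 53517206 UMIs. The study states more cells for CFA than the deposited CFA matrix holds barcodes, and the files do not show why. The libraries stood apart in hemoglobin, since the 1% limit applied to 4554 PBS and 779 CFA barcodes, and 2667 and 4014 cells were kept. They shared 10 barcode sequences, of which 1 belonged to a PBS member and 0 to a CFA member. Capillary cells held a median of 4922.5 UMIs and 2248 genes in PBS and 3604 UMIs and 1768 genes in CFA, and their summed UMIs were 2821241 and 2578155. Their median mitochondrial share was 1.49% in PBS and 0.358% in CFA. The PBS members were thus the deeper ones and the richer in mitochondrial RNA, and the part of this gap in the results below was not tested.

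Capillary cells were the most numerous endothelial class in each library, as the plot of class shares shows. They made up 15.1% (13.8 to 16.6) of kept cells in PBS and 15.1% (14.0 to 16.3) in CFA, a ratio of 0.998 (0.889 to 1.12). Among endothelial cells they made up 45.2% (41.9 to 48.6) of 893 in PBS and 50.2% (47.3 to 53.0) of 1210 in CFA, a ratio of 1.11 (1.01 to 1.22). This order was not stable, because the ratio was 0.891 when the gate was applied to cells thinned to 2000 UMIs each and 1.33 with no limit on hemoglobin. Arterial cells, with at least 2 arterial and under 3 venular UMIs, numbered 285 and 265. Venular cells, with at least 3 venular and under 2 arterial UMIs, numbered 56 and 127. The study named a second group of capillary cells after Plvap, so the venular class may hold cells of that group.

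**Figure D1:**
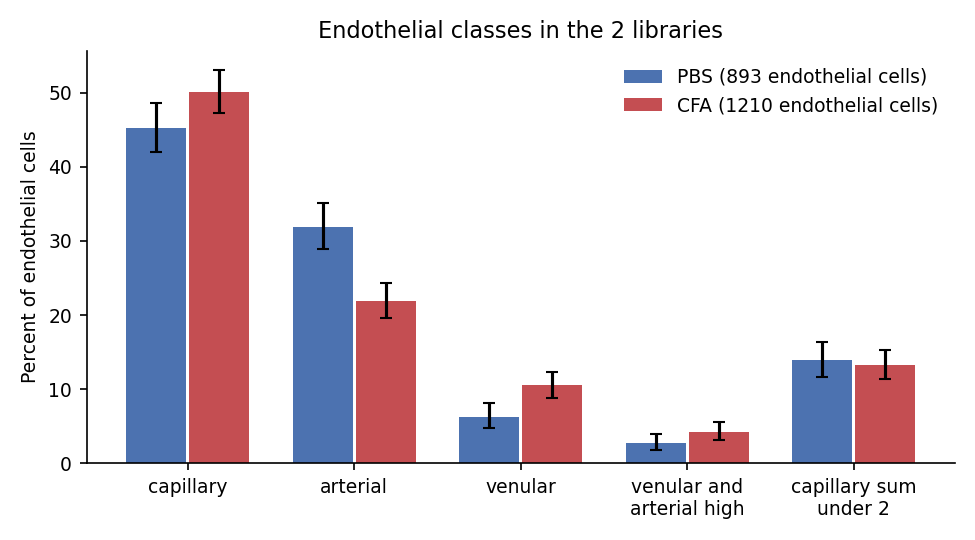
Bars give the percent of endothelial cells in each of 5 classes for PBS (893 cells) and CFA (1210 cells), with exact 95% Clopper-Pearson intervals as error bars. Capillary cells were 45.2% and 50.2%, and the intervals cover counting error only.

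The genes that chose the cells are given as a description. Gpihbp1 was detected in 96.0% of members in PBS and 91.9% in CFA, Timp4, an inhibitor of matrix metalloproteinases, in 80.4% and 89.0%, and Car4 in 75.5% and 63.3%. All 3 were detected together in 60.4% and 54.0% of members. The median sum of the 3 genes was 12 UMIs in PBS and 8 in CFA, and 19 PBS and 55 CFA members sat at the limit of 2. In CPM (counts per 1000000 UMIs summed over the members of a library), Car4 lay at 439.5 in PBS and 339 in CFA, Gpihbp1 at 1180.3 and 1034, Timp4 at 837 and 1094 and Pecam1 at 1149 and 1201. Those 55 CFA members held 3009 CPM of Cd36, 5608 of Fabp4 and 1479 of Aqp1. The 77 CFA cells just outside, with a sum of 1, held 3143, 5207 and 1425 CPM, while the 83 cells with a sum of 0 held 443, 1507 and 359. In PBS the 19 cells at a sum of 2 held 1732 CPM of Cd36, the 35 at a sum of 1 held 1125, and the 89 at a sum of 0 held 218. In both libraries the cells at a sum of 1 thus lay nearer to the members than to the cells at 0 for Cd36, and the limit crosses a continuous range.

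The label was checked against 15 endothelial markers that the rule did not use, and none of them was at 0 in either library. Fabp4, the fatty acid-binding protein of capillaries, was detected in 98.8% of members in PBS and 99.2% in CFA, against 18.8% and 13.1% of fibroblasts, which should lack it. Cd36, the fatty acid translocase, was found in 98.3% and 98.0% of members and in 3.23% and 4.25% of fibroblasts. Median depth was 11115 UMIs in PBS and 12356 in CFA fibroblasts, so they were deeper than the capillary cells. After thinning each cell to 1000 UMIs, which left out 2 PBS and 19 CFA members, these shares were 97.3% and 96.9% for Fabp4 and 81.6% and 91.8% for Cd36, against 2.53% and 2.67% and 0.844% and 0.713% of thinned fibroblasts. The fibroblasts were chosen with no UMI of Pecam1, Cdh5, Kdr, Flt1 or Ptprc, which favours cells with little endothelial background RNA. Low shares of endothelial genes in fibroblasts, here and below, are thus in part set by that choice. Rgcc, Aqp1, Lpl, Cd300lg, Meox2 and Tcf15 were each above 200 CPM in both libraries. The lymphatic genes Prox1, Lyve1, Pdpn and Mmrn1 were each under 10 CPM, and Ccl21a reached 43.95 CPM in PBS through 124 UMIs of 1 cell. Of genes the study used for other vessels, Fbln5, an elastic fibre protein, lay at 12.8 and 2.72 CPM and Alpl, a phosphatase, at 55.6 and 38.01, while Plvap, of fenestrated vessels and limited by the rule, had 22 and 33 UMIs. Vcam1, an adhesion molecule the study used for its other capillary group, lay at 28.0 and 16.7 CPM, against 585 and 413 in venular cells. Aplnr, the apelin receptor, which the study also used for that group, went against this pattern in PBS, at 348 CPM and in 69.6% of members, against 235 CPM in venular cells. In CFA it lay at 111 CPM in capillary and 287 in venular cells. Of the 15 markers, Btnl9, at 194.95 and 107 CPM, and Cldn5 were higher in arterial cells in both libraries, and Emcn and Egfl7 in venular cells. Tek in PBS and Esam in CFA were also higher in venular cells. The members thus carried markers of blood endothelium, and most but not all capillary markers were highest in them, so the label was kept.

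Set beside venular and arterial cells together, capillary cells were high in genes of varied roles, and these ratios are a description because the classes were defined on their own UMIs. Adh1, an alcohol dehydrogenase, was at 151 CPM in PBS and 175 in CFA capillary cells, against 48.7 and 36.3 in arterial and 25.8 and 10.5 in venular cells. Hdac9, a histone deacetylase, was at 939.7 and 1683 CPM, against 386 and 435 in arterial cells. Cdh23, a cadherin, was at 146 and 206 CPM, against 58.6 and 48.9 in arterial and 7.16 and 7.75 in venular cells. Slc28a2, a nucleoside transporter, was at 227 and 335 CPM, and Slc1a1, a glutamate transporter, at 74.4 and 100.1. Car8, related to the carbonic anhydrases, was at 347 and 332 CPM, and Lnx1, a ubiquitin ligase, at 273 and 646. Col28a1, a collagen, stood at 71.95 and 51.98 CPM and 2610203C22Rik at 57.1 and 53.1. Of the 12 genes ranked highest, Col2a1, Col11a1 and Ibsp owed at least 68.6% of their UMIs in each library to 1 cell.

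The comparison of CFA with PBS capillary cells asks how the capillary wall differs 3 weeks into the inflammation. Genes with a mean of at least 20 CPM over both libraries were compared, and a gene was called higher or lower when the ratio of CPM passed 2-fold. Of 6658 genes, 222 (3.33%) were higher in CFA and 303 (4.55%) were lower, and the median ratio was 1.01. These counts depend on the settings, with 386 higher and 497 lower when each cell was thinned to 1000 UMIs, and 142 and 129 at a mean of at least 50 CPM. The higher genes included 12 of 15 tested guanylate-binding protein and GTPase genes, 9 of 19 MHC class I genes and Bmp6. Of 14 type I interferon genes 1 was higher, and of 14 basement membrane genes 3 were lower. The shares over all genes, 3.33% and 4.55%, are the background for each list count in capillary cells below.

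**Figure D2:**
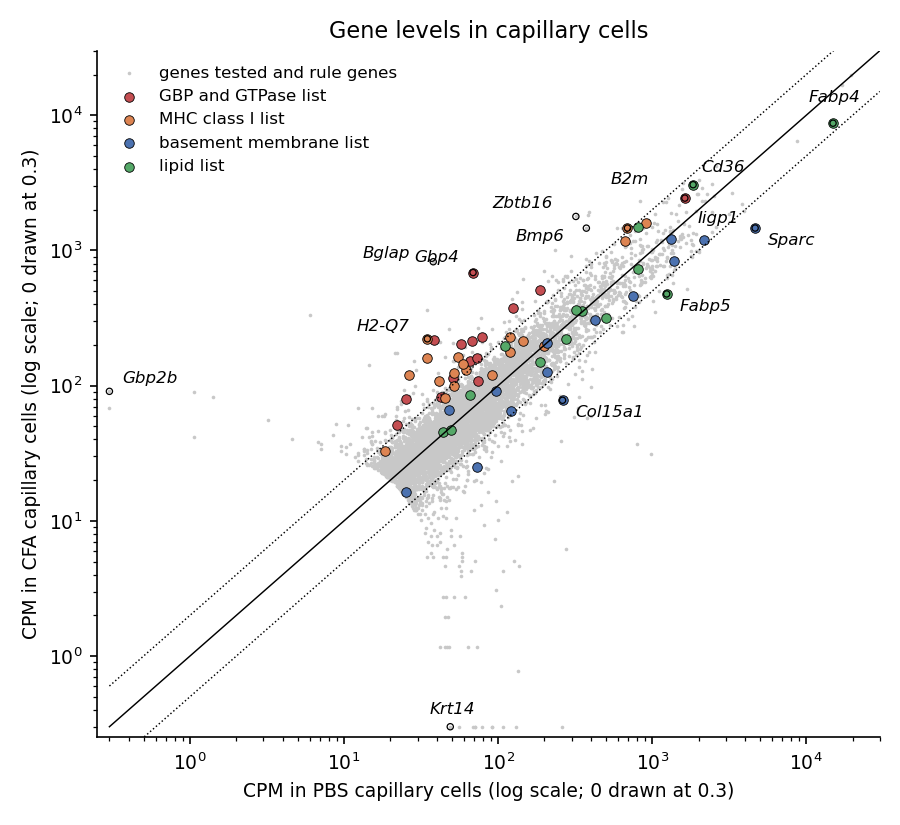
Each point is a gene with a mean of at least 20 CPM, by its CPM in PBS (x) and CFA (y) capillary cells on log axes, with 0 drawn at 0.3; the solid line marks equal levels and the dotted lines 2-fold. The guanylate-binding protein and GTPase list (red) lies above equality and most of the basement membrane list (blue) below it.

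Among the 12 genes with the highest ratio, 6 were carried by many cells. Gbp2b, a guanylate-binding protein, had 0 UMIs in PBS members and 234 UMIs (90.8 CPM) in 119 CFA members. It was at least 85.4-fold higher with the PBS value set at 3 UMIs, and at least 68.9-fold by the exact conditional limit. This absence in PBS was not particular to capillary cells. Gbp2b was also at 0 in PBS arterial cells, venular cells, fibroblasts and all kept cells outside the endothelial gate. In CFA it lay at 68.6, 9.97, 17.6 and 8.14 CPM in these. Gbp4, of the same family (chr5:105115767-105139586 in the GENCODE annotation of GRCm38), rose from 68.8 to 686 CPM, a ratio of 9.98 (8.60 to 11.6). Slc10a6, a transporter of sulfated steroids, rose from 21.3 to 176 CPM, a ratio of 8.26 (6.30 to 11.004). Fkbp5, a chaperone of the glucocorticoid receptor (chr17:28399094-28517527), rose from 21.98 to 175 CPM, a ratio of 7.94 (6.08 to 10.5). H2-Q7, a nonclassical MHC class I gene with close paralogs that may share reads with it, rose from 34.7 to 222 CPM, and Zfp697, a zinc finger gene, from 8.86 to 52.4. These genes were each detected in at least 90 CFA members. The other 6, Car1, Car2, Bglap, Bglap2, Phex and Sema3d, which belong to red cells, bone or connective tissue in the main, had at least 90.4% of their CFA UMIs in 1 cell. Bglap, the osteoblast product osteocalcin, went from 37.9 to 825 CPM with 2099 of its 2127 CFA UMIs in that cell, and without the highest cell of each library its ratio was 0.388.

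The 12 genes with the lowest ratio rested on few PBS cells. In each of them 5 PBS cells held at least 50% of the UMIs, and in 5 genes 1 cell did. Lgals7 and Krt14, of squamous epithelium, had 199 and 138 UMIs in PBS, of which 97.5% and 97.1% lay in 1 cell, and 0 in CFA. Postn, Col6a2, Col6a3, Col16a1, Tnn, Angptl2, Comp and Col9a1 are genes of fibrous or cartilage matrix. Postn, for example, went from 275 to 6.21 CPM, with 36.5% of its PBS UMIs in 1 cell. Pdzrn4 and Zfp385b completed the 12.

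Because such cells weighed on the extremes, the capillary members were also compared after leaving out 20 PBS and 14 CFA cells with 1% or more of their UMIs from 66 marker genes of other cells, a step chosen after seeing the data. Of 6525 genes in the remaining 384 and 593 cells, 216 (3.31%) were higher and 224 (3.43%) lower. Of the 12 genes ranked highest in all members, 8 were again among the 12 highest, Car1 and Car2 with their single cells included. They were joined by Sulf1, a heparan sulfate sulfatase, Fam107a, Nr1d2, a clock repressor, and Igtp, an immunity-related GTPase. Sulf1 went from 6.41 to 57.2 CPM in the remaining cells, but from 18.1 to 59.3 CPM in all members, a ratio of 3.28. Of the 12 lowest, 2 were again there, Lgals7 and Krt14. The others were then Gm42047, Egfem1, Igf2, Tnc, Akap5, Cxcl1, Nr4a1 and Sparc, with Abcc9 and Rgs5, which mark pericytes. In kept cells outside the endothelial gate Gm42047 was also lower, at 54.6 CPM in PBS and 2.26 in CFA, whereas Egfem1 was at 3.07 and 26.1. Igf2, a growth factor, was found in 104 PBS and 13 CFA cells of all members and went from 62.9 to 4.90 CPM in the remaining ones. Akap5, a scaffold for protein kinase A, was found in 62 and 13 members and went from 38.5 to 5.72 CPM.

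RNA of other cells differed between the libraries within the capillary members, and its part in the results was not tested. The 6 fibroblast markers summed to 3724 CPM in PBS and 2411 in CFA, led by Col1a1, with 3 of 5 tested lower and Col3a1 at 989 and 31.0 CPM. The 5 cartilage markers summed to 513 and 91.9 CPM, led by Col2a1. The 4 bone markers went the other way, from 173 to 1161 CPM, led by Ibsp in PBS and Bglap in CFA, with 2 of 2 tested higher. The 9 mural markers summed to 692 CPM, led by Rgs5, and 619 CPM, led by Acta2, with 2 of 6 tested higher and 2 lower. The 6 erythroid markers summed to 1265 and 509 CPM, led by Hbb-bs, with 4 of 4 lower. The fibroblast, cartilage and red cell lists thus weighed more in PBS and the bone list more in CFA, the latter with 2099 of 2127 CFA Bglap UMIs in 1 cell. In PBS, 1 cell held 98.1% of the Col2a1 UMIs, and the cartilage list without that cell was not tested. In members under 1% other-cell markers the cartilage list turned to 18.04 CPM in PBS and 26.95 in CFA, and the bone list was at 33.7 and 52.7. In the same members the mural list was at 370.01 CPM in PBS and 27.4 in CFA, and the fibroblast list at 342 and 158, so RNA of these cells still differed there.

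RNA of macrophage and neutrophil lists went up in the same comparison. The 7 macrophage markers summed to 16.3 CPM in PBS, led by Cd68, and 381 in CFA, led by Lyz2, and the defining gene Adgre1 was at 0 in both. The 6 neutrophil markers summed to 118 and 399 CPM, led by S100a9. Lyz2 had a UMI in 69.4% of CFA capillary cells and in 75.4% of CFA fibroblasts, which should lack it, against 4.21% and 6.17% in PBS. After thinning these shares were 33.0% and 13.4% in CFA and 1.24% and 0.844% in PBS. The 5 B cell markers summed to 23.7 and 22.5 CPM, led by Ighm. The 4 T and NK cell markers summed to 1.42 and 1.94 CPM, led by Nkg7, with Cd3e and Trbc2 at 0. The 8 muscle fibre markers summed to 31.5 and 34.5 CPM, led by Mylpf, with Myh4 and Myh1 at 0. The 5 lymphatic markers summed to 71.6 CPM, led by Ccl21a, and 17.8, led by Pdpn. The 3 adipocyte markers summed to 0.709 and 0.388 CPM, with Plin1 at 0 in both and Adipoq at 0 in CFA. None of the B cell, T and NK cell, muscle or adipocyte genes reached the mean of 20 CPM.

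Guanylate-binding proteins and immunity-related GTPases, which attack the vacuoles of intracellular microbes and which interferon-gamma induces, stood higher in CFA capillary cells. Of 15 genes tested, 12 rose past 2-fold and 0 fell, against 3.33% and 4.55% of all genes, and the median ratio was 2.73 against 1.01 over all genes. Their sum went from 2607 CPM in PBS to 5624 CPM in CFA, a ratio of 2.16 (2.10 to 2.22). Igtp (chr11:58199556-58207591) rose from 38.6 to 216 CPM, a ratio of 5.60 (4.56 to 6.94), and Gbp5 from 57.4 to 204 CPM, a ratio of 3.55 (2.97 to 4.26). Gbp4 was described above, and Gbp2, Gbp3, Gbp6, Gbp7, Gbp9, Irgm2, Tgtp1, Tgtp2 and Ifi47 also rose, with ratios from 2.18 to 3.17. The members that stayed within 2-fold were Iigp1, at 1630 and 2439 CPM, Irgm1, at 42.9 and 82.2, and Gbp8, at 74.1 and 108. Several of these genes are close paralogs in gene clusters, so reads may be split between them with some uncertainty.

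The rise was spread over the capillary population rather than held by few cells, as the plot of UMIs per cell shows. After thinning to 1000 UMIs, the list had a median of 2 UMIs per cell in 402 PBS cells and 5 in 588 CFA cells. Cells with 5 or more UMIs of the list made up 25.4% in PBS and 52.0% in CFA, and cells with 0 made up 18.2% and 7.31%. Without Iigp1, which alone held 62.5% of the PBS and 43.4% of the CFA UMIs of the list, the medians were 1 and 2. Gbp4 was detected in 30.2% of PBS and 72.2% of CFA members, and in 6.72% (4.47 to 9.62) and 42.9% (38.8 to 47.0) after thinning. Thinned fibroblasts held Gbp4 in 0 of 711 PBS cells, which allows up to 0.422% by a limit of 3 cells, and in 3.03% of CFA cells.

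**Figure D3:**
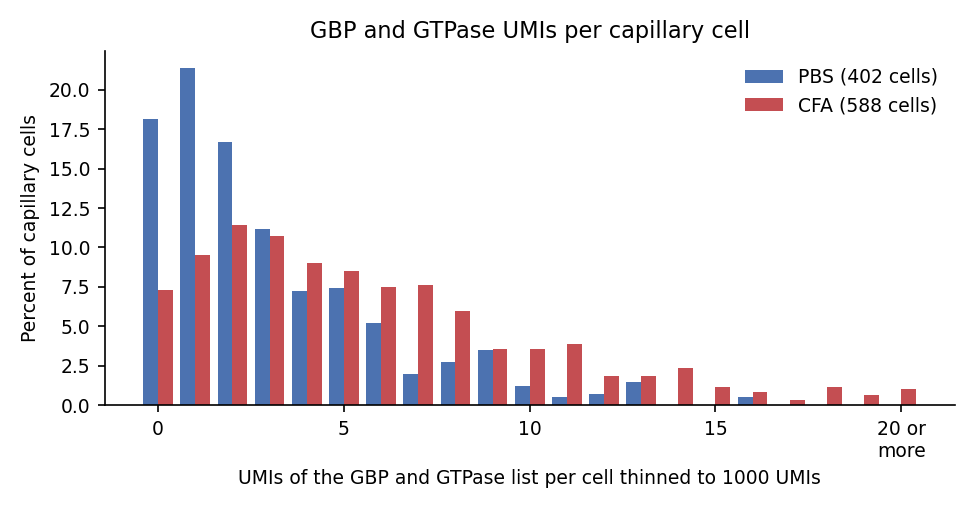
Bars give the percent of PBS (402) and CFA (588) capillary cells by the number of UMIs of the guanylate-binding protein and GTPase list after each cell was thinned to 1000 UMIs. Cells with 0 such UMIs were 18.2% in PBS and 7.31% in CFA, and cells with 5 or more were 25.4% and 52.0%.

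Depth moved with this ratio. In cells under 2000 UMIs it was 1.25 (0.990 to 1.59), with 15 PBS and 101 CFA cells. It was 1.62 in cells of 2000 to 4000 UMIs, 2.04 in cells of 4000 to 8000 and 2.20 in deeper ones. The ratio was thus smallest in the shallowest bin, where fewer than 20 PBS cells stood, and its link to depth was not tested. Across cells grouped by the sum of Car4, Gpihbp1 and Timp4 it ran from 1.85 to 2.42.

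The promoters of the list's genes with the highest ratios are shown because these genes moved together. Of the 3 genes of the list with the highest ratios, Gbp4, Igtp and Gbp5, the promoters of Igtp and Gbp5 follow, from 250 bases before to 50 after the start, from RefSeq on GRCm38.p6, plus strand. Igtp lies at chr11:58199306-58199605 and Gbp5 at chr3:142496684-142496983. Capitals mark AAANNGAAA, the core of the interferon-stimulated response element, and TTCNNNGAA, the gamma-activated site, searched on both strands.
Igtp: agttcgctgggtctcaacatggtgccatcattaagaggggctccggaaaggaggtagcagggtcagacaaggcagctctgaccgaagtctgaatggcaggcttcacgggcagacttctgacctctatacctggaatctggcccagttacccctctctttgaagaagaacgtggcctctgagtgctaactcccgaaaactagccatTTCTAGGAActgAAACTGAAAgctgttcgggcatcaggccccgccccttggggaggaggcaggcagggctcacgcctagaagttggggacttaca
Gbp5: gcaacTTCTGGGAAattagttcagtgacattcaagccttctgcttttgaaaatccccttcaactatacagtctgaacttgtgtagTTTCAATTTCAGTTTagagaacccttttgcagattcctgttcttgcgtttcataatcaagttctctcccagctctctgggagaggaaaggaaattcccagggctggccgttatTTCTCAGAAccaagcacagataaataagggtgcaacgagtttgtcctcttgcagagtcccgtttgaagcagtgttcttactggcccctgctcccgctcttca
Igtp holds 1 match to the response element core and 1 to the gamma-activated site. Gbp5 holds 2 of each, and its 2 core matches overlap. Of 11 genes of the list with a promoter in the table, 11 hold the core and 7 the gamma-activated site. Of all 32851 promoters, 3466 (10.6%) hold the core and 2726 (8.30%) the gamma-activated site. A match describes letters in this window and not binding.

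The genes of MHC class I and its peptide loading, which display cytosolic peptides to CD8 T cells, were higher by a similar factor. Of 19 genes tested, 9 rose past 2-fold and 0 fell, against 3.33% and 4.55% of all genes. The median ratio was 1.93, against 1.01 over all genes, and 18 lay above 1. The sum went from 3426 to 6545 CPM, a ratio of 1.91 (1.86 to 1.959). B2m, the shared light chain, rose from 691 to 1464 CPM, a ratio of 2.12 (2.01 to 2.24). Nlrc5, the transactivator of class I genes, rose from 34.7 to 159.8 CPM, and Tap1 and Tap2, the peptide pump, from 52.1 to 124 and from 41.5 to 108. Psmb9, an immunoproteasome subunit, rose from 59.2 to 144 CPM. The classical heavy chains H2-K1, at 914 and 1593 CPM, and H2-D1, at 666 and 1171 CPM, stayed within 2-fold, as did Psme1 at 198 and 196. Per cell thinned to 1000 UMIs, the list had a median of 3 UMIs in PBS and 6 in CFA. In each depth bin its ratio lay between 1.77 and 2.14, so it varied less with depth than that of the GTPases.

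MHC class II genes, which professional antigen-presenting cells express, were sparse in the capillary cells. Cd74, the invariant chain, had 3 UMIs in PBS and 232 in CFA, a ratio of 84.6 (28.6 to 413), and H2-Aa had 3 and 107 UMIs. After thinning, Cd74 was in 7.65% of CFA capillary cells and 7.49% of CFA fibroblasts. As counted, it was in 20.3% of CFA capillary cells and 30.1% of fibroblasts. The thinned share of cells with Cd74 was thus alike in fibroblasts, and whether the RNA came from the capillary cells was not tested. Ciita, the class II transactivator, had 0 UMIs in PBS and 3 in CFA.

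The receptors and transducers of interferon had a lower median ratio than these targets, 1.11 over 16 genes tested. The list holds 1 gene that is not analysed singly here, so no count past 2-fold is given. Irf2, at 183 and 365 CPM, came to a ratio of 1.997, just short of 2-fold. Ifngr1, the ligand-binding chain for interferon-gamma, was at 199.9 and 235 CPM, Jak1 at 537 and 461, and Irf1, an early target, at 694 and 629.5. The sum of the list was 3197 and 3419 CPM, a ratio of 1.07 (1.04 to 1.10) that came to 0.99999 as a mean over cells. Genes typical of type I interferon showed no common shift. Of 14 tested, Ifit2 rose from 50.7 to 126 CPM and 0 fell, the median ratio was 1.07, and the sum was 3275 and 3051 CPM, a ratio of 0.932 (0.904 to 0.960) that came to 1.10 with no hemoglobin limit. Isg15, a ubiquitin-like modifier, was at 217 and 186 CPM, and Bst2, which tethers viruses, at 420.4 and 404.

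The signals that draw and hold leukocytes were for the most part not higher. Of 5 chemokine genes tested, Cxcl2 rose from 9.57 to 36.1 CPM, while Cxcl1 fell from 70.2 to 19.8 and Cxcl12, which retains stem and immune cells, from 1336 to 655, a ratio of 0.490 (0.463 to 0.519). Cxcl9, an interferon-gamma target, was at 123 and 83.8 CPM. The median ratio of these 5 was 0.679. Of 10 adhesion genes tested, Icam1, which binds leukocyte integrins, fell from 254 to 83.4 CPM, a ratio of 0.329 (0.281 to 0.383), and 0 rose, with a median ratio of 0.688 and a sum ratio of 0.865 (0.836 to 0.894) that came to 1.05 with no hemoglobin limit. Vcam1, which binds leukocyte integrins in venules, was at 28.0 and 16.7 CPM, and Jam2, a junctional adhesion molecule, at 423 and 615. Icam1 and Cxcl12 thus went the opposite way to the interferon-induced GTPases.

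The genes of lipid handling, a defining function of these capillaries, lay on both sides of equal levels, while their sum was lower in CFA. Of 14 genes tested, Fabp5, a fatty acid-binding protein, fell from 1242 to 477 CPM, a ratio of 0.384 (0.359 to 0.410), and 0 rose, with a median ratio of 0.991. The sum was 21564 and 16282 CPM, a ratio of 0.755 (0.746 to 0.765). Fabp4 alone made up 69.2% and 53.6% of it, at 14929 and 8735 CPM. The lower sum was carried by Fabp4, and the other genes of the list together lay higher in CFA. Cd36 lay at 1844 and 3064 CPM, a ratio of 1.66 (1.60 to 1.72). Lpl, the lipase that Gpihbp1 anchors, lay at 804 and 1487 CPM, a ratio of 1.85 (1.76 to 1.95), and Lipe, hormone-sensitive lipase, at 110.2 and 198. Pparg, a regulator of fatty acid uptake, was at 322 and 363 CPM. Meox2 and Tcf15, which also regulate this uptake, were at 277 and 221 and at 504 and 318. Within the list, then, Cd36, Lpl and Lipe were above and Fabp4, Fabp5 and Tcf15 below equal levels. The sum ratio differed by the level of the rule genes without a steady trend. It was 1.08 in members with 2 to under 5 UMIs of Car4, Gpihbp1 and Timp4, 0.903 with 5 to under 10, 0.732 with 10 to under 20 and 0.899 with 20 or more.

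No gene of caveolae and of water and gas exchange passed 2-fold among 7 tested. Their median ratio was 1.04, and their sum was 6583 and 7455 CPM, a ratio of 1.13 (1.11 to 1.16). Cav1, the coat protein of caveolae, was at 1937 and 1971 CPM and Cavin2, which shapes them, at 1308 and 1359.5. Aqp1, the water channel, was at 2105 and 2899 CPM, a ratio of 1.38 (1.33 to 1.42). Of 8 junction and transport genes tested, Cldn5, the main claudin of endothelial tight junctions, fell from 409 to 132 CPM, a ratio of 0.323 (0.286 to 0.365), and 0 rose, with a median ratio of 1.14 and a sum of 2198 and 2145 CPM. Cldn5 was detected in 59.9% of members in PBS and 25.2% in CFA, and in 25.9% (21.7 to 30.4) and 7.65% (5.64 to 10.1) after thinning, against 0 of 711 and 0 of 561 thinned fibroblasts. The choice of fibroblasts without endothelial UMIs limits this comparison. Tjp1, a scaffold of the same junctions, was at 444 and 581 CPM, and the efflux pumps Abcb1a and Abcg2 were at 205 and 313 and at 257 and 379.7.

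Basement membrane genes were lower in CFA capillary cells. Of 14 tested, 3 fell past 2-fold and 0 rose, against 4.55% and 3.33% of all genes, and the median ratio was 0.608. The sum went from 11749 to 6136 CPM, a ratio of 0.522 (0.512 to 0.532). Sparc, a collagen-binding matricellular protein (chr11:55394500-55423183), fell from 4660.4 to 1465 CPM, a ratio of 0.314 (0.303 to 0.326). A single cell held 44.1% of the CFA Sparc UMIs, and without the highest cell of each library Sparc lay at 4183 and 819 CPM, a ratio of 0.196. Col15a1, a collagen of the outer basement membrane, fell from 262 to 78.0 CPM, and Nid2, a nidogen that links laminin and collagen IV, from 73.0 to 25.2. Col4a1 and Col4a2, the main collagen IV chains, lay at 2164 and 1195 CPM and at 1377 and 831. Lama5, a laminin chain of mature vessels, lay at 48.2 and 65.6 CPM. The list had a median of 10 UMIs per thinned cell in PBS and 5 in CFA. Sparc was in 98.5% of PBS and 76.9% of CFA members, and in 87.8% and 46.4% after thinning, but thinned fibroblasts held it at higher shares, 96.6% and 85.7%. In members under 1% other-cell markers the list's ratio was 0.498, and that of Sparc 0.228. The mural and fibroblast lists, of cells that also make collagen IV and Sparc, were lower in CFA in those members too, as given above, and their part in these ratios was not tested. In the 104 PBS and 39 CFA cells above 8000 UMIs the list's ratio was 0.711, against 0.466 to 0.539 in shallower bins.

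**Figure D4:**
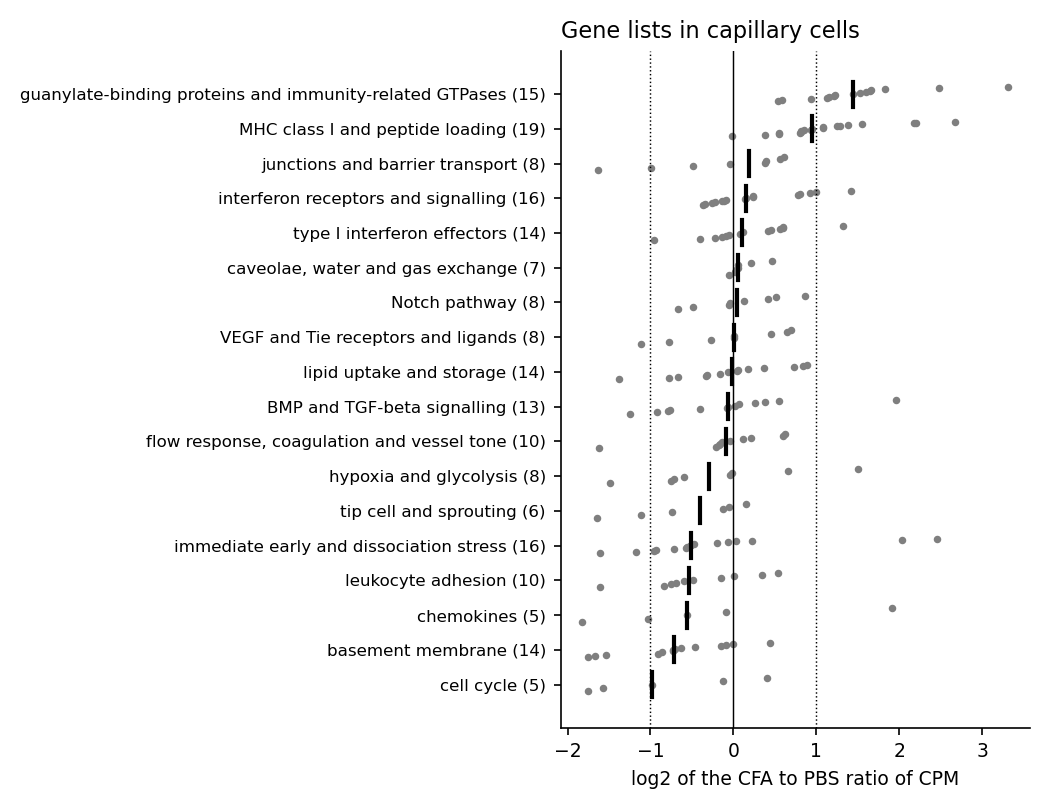
Each grey point is a gene with a mean of at least 20 CPM, placed by the log2 of its CFA to PBS ratio in capillary cells, with a black bar at the median of its list and the number of genes tested in parentheses. Dotted lines mark 2-fold, and the median ratio over all genes was 1.01.

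Signals of the TGF-beta family and of vessel growth differed in single genes more than as groups. Of 13 BMP and TGF-beta genes tested, 1 rose and 1 fell, and the median ratio was 0.956. Bmp6, a secreted BMP ligand (chr13:38345107-38500302), rose from 374 to 1462 CPM, a ratio of 3.91 (3.65 to 4.19). Bmp6 was in 64.1% of PBS and 82.4% of CFA members, and in 28.1% (23.8 to 32.8) and 63.3% (59.2 to 67.2) after thinning, against 5.20% and 5.35% of thinned fibroblasts. Ltbp4, which binds latent TGF-beta, fell from 425 to 179 CPM. Id1 and Id3, which BMP signals induce, lay lower in CFA without passing 2-fold, at 612 and 323 CPM and at 804 and 472. The ligand thus stood higher and these induced genes lower in the same cells.

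Of 6 tip cell genes tested, Aplnr, the apelin receptor, fell from 348 to 111 CPM, a ratio of 0.319 (0.279 to 0.365), Angpt2, which destabilises vessels, from 31.9 to 14.7, and 0 rose, with a median ratio of 0.758. Esm1, a tip cell product, had 14 UMIs in PBS and 0 in CFA. Of 8 VEGF and Tie genes tested, Angpt2 fell and 0 rose, with a median ratio of 1.01, and Tek, the angiopoietin receptor, lay at 295 and 475.5 CPM. Among the genes of the rule, described only, Kdr lay at 867 and 808 CPM and Flt1, a decoy for VEGF, at 2581 and 4236. No Notch gene of 8 tested passed 2-fold, the median ratio was 1.03, and Notch4, the endothelial receptor, lay at 63.4 and 115 CPM. The 10 genes tested of flow response, coagulation and tone had a median ratio of 0.944 and a sum ratio of 0.927 (0.8998 to 0.954) that came to 1.05 with no hemoglobin limit. This list also holds 1 gene that is not analysed singly here, so no count past 2-fold is given. Klf2, the flow-induced factor, was at 1746 and 1513 CPM and Nos3, which makes nitric oxide, at 116 and 134.

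Immediate early genes, which tissue digestion also induces, were mostly lower in CFA cells. Of 16 tested, 2 rose and 2 fell, against 3.33% and 4.55% of all genes. The median ratio was 0.699, against 1.01 over all genes. Fos lay at 1784 and 916 CPM and Jun at 1935 and 1313, Ier2 fell from 740.1 to 328 and Nr4a1 from 142 to 46.5. The heat shock genes went the other way, as Hspa1a rose from 51.0 to 208 CPM and Hspa1b from 47.9 to 262, a ratio of 5.48 (4.55 to 6.64). Of 8 hypoxia and glycolysis genes, Pfkfb3, an activator of glycolysis, rose from 59.5 to 169 CPM, Eno1, enolase, fell from 99.96 to 35.7, and the median ratio was 0.815.

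Few capillary cells held RNA of Mki67. Mki67, which marks dividing cells, was detected in 6.44% of members in PBS and 2.47% in CFA, and in 1.74% (0.703 to 3.55) and 0.680% (0.186 to 1.73) after thinning, beside 1.13% and 0.535% of thinned fibroblasts. Of 5 cell cycle genes tested, Mki67 fell from 48.2 to 14.4 CPM and Top2a, a topoisomerase, from 33.3 to 11.2, 0 rose, and the median ratio was 0.508. These values rested on few cells, since 1 cell held 33.8% of the PBS and 1 cell 59.5% of the CFA Mki67 UMIs. After removal of the top 5% of cells by doublet score the ratio of Mki67 was 1.02, as was that of the list's sum.

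Some of these differences were also seen in the other endothelial classes and some were not, and the differences between classes were not tested. The make-up of the arterial class differed between the libraries. Its lymphatic markers summed to 578 CPM in PBS and 86.3 in CFA, and its mural markers to 2678 and 1481. Gja5, an arterial gene of the rule, lay at 30.7 and 147 CPM, and median depth was 9265 and 5284 UMIs. The part of this in the arterial ratios, here and in the flagged comparisons below, was not tested. Of 6775 genes tested in venular cells, 242 (3.57%) were higher and 288 (4.25%) lower in CFA. Of 6928 in arterial cells, 256 (3.70%) were higher and 196 (2.83%) lower. The guanylate-binding protein and GTPase list rose in 8 of 15 genes in each, with sum ratios of 1.80 in venular and 1.77 in arterial cells beside 2.16 in capillary cells. Bmp6 lay at 98.8 and 99.1 CPM in venular and 233 and 446 in arterial cells, with ratios of 1.004 and 1.91 beside 3.91 in capillary cells. The MHC class I list had sum ratios of 1.86 in venular and 1.77 in arterial cells beside 1.91. Cd36 had ratios of 0.847 in venular and 1.15 in arterial cells beside 1.66, and Lpl 0.828 and 1.10 beside 1.85. Fabp4 was lower in CFA in each class, with ratios of 0.562 in venular and 0.460 in arterial cells beside 0.585. The sum of the lipid list was also lower in each class, with ratios of 0.584 and 0.570 beside 0.755. Cldn5 had a ratio of 0.347 in venular and 0.934 in arterial cells beside 0.323 in capillary cells. The basement membrane list had sum ratios of 0.899 in venular and 0.519 in arterial cells beside 0.522. In the plot of the 3 classes, Bmp6, Cd36 and Lpl had higher ratios in capillary cells than in either other class. They were not the only ones. Gbp4 had 4.67 in venular and 7.05 in arterial cells beside 9.98, and Igtp 2.53 and 4.59 beside 5.60.

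**Figure D5:**
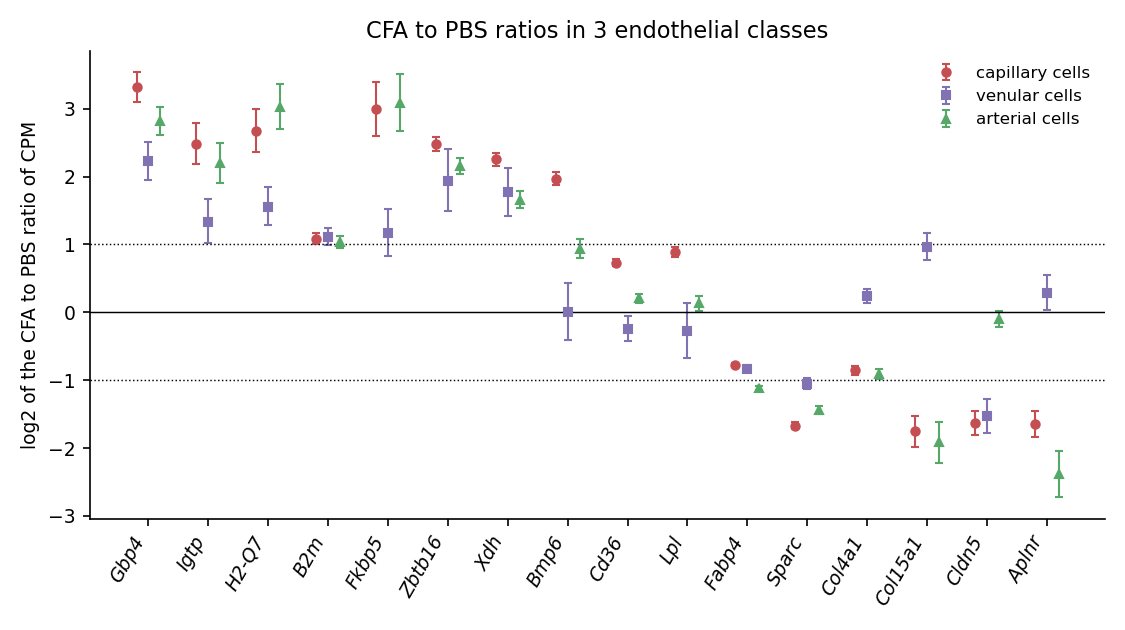
Points give the log2 of the CFA to PBS ratio of CPM for 16 genes in capillary, venular and arterial cells, with 95% counting intervals as bars and dotted lines at 2-fold. Bmp6 had ratios of 3.91, 1.004 and 1.91 in the 3 classes and Cldn5 0.323, 0.347 and 0.934; the 16 genes shown were chosen after their values were seen.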

How the data were processed

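The files hold raw UMI counts per gene and barcode, which the authors made with Cell Ranger 7.0.1 on GRCm38 (mm10) and deposited for 1 PBS and 1 CFA library. Counts were summed for the 38 symbols that stand for several gene IDs. Cells were chosen by the limits given above, on UMIs as counted, and the members and lists were chosen with earlier results of these data known. UMIs were summed over the members of a library and divided by their total, and a 0 was set to 3 counts per library for a bound. Named genes were those of the rule, the 12 highest and 12 lowest ratios among genes with a mean of at least 20 CPM and at least 10 UMIs in a library, the 12 with the highest ratio of capillary to venular and arterial CPM (10 CPM added, mean capillary CPM of at least 50), members of the lists and endothelial genes the study names. Mitochondrial, ribosomal, hemoglobin and immunoglobulin genes, and genes under 0.2 of the level outside endothelium, were left out of the ranked sets. The 32 lists include 13 of markers of other cells; 1 of these, and single genes of 2 other lists, are not analysed here. Fibroblasts, for comparison, needed 10 UMIs of Dcn, Col1a1, Col1a2 and Lum with no endothelial or Ptprc UMI. At a sum of 2821241 PBS and 2578155 CFA UMIs, a gene at 20 CPM has about 50 UMIs in a library. Alternatives changed the cell limits, the gate, the scaling, the depth, the doublets (Scrublet in scanpy 1.11.5, top 5%) and the CPM limit. The other tools were Python 3.11.15, numpy 2.4.6, scipy 1.17.1, pandas 2.3.3 and matplotlib 3.10.9.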

Additional observations from a re-analysis of the deposited data

Results flagged for a closer look

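The gene lists other than those of other cells, and the named genes outside the rule with at least 50 UMIs over both libraries in each class, were compared between classes. The limits of 50 UMIs and 1.5-fold were set after the values were seen, and smaller gaps and genes with fewer UMIs, such as Slc1a1 and Fbln5, are not given. In 17 comparisons the CFA to PBS ratio lay on opposite sides of 1 in the capillary cells and in another endothelial class, at least 1.5-fold apart and with counting intervals that left 1 out in both. The difference between classes was not tested in any of them, since each condition had 1 library. Cd36 had a ratio of 1.66 (1.60 to 1.72) in capillary and 0.847 (0.749 to 0.958) in venular cells, and Tek 1.61 (1.48 to 1.77) and 0.829 (0.708 to 0.974). Rgcc had 1.17 (1.10 to 1.23) in capillary, 0.748 (0.643 to 0.871) in venular and 0.727 (0.675 to 0.783) in arterial cells. Cdkn1a, chosen after its values were seen, had 1.67 (1.56 to 1.79) in capillary and 0.746 (0.629 to 0.887) in venular cells. Aqp1 had a ratio of 1.38 (1.33 to 1.42) in capillary and 0.835 (0.785 to 0.889) in arterial cells. Aplnr had 0.319 (0.279 to 0.365) in capillary and 1.22 (1.02 to 1.47) in venular cells. Vcam1 had 0.596 (0.401 to 0.874) in capillary and 1.46 (1.06 to 2.006) in arterial cells, but its capillary ratio was 1.25 with the gate on cells thinned to 2000 UMIs. Adh1 had 1.16 (1.01 to 1.33) in capillary and 0.747 (0.557 to 0.993) in arterial cells. Alpl had 0.683 (0.525 to 0.885) in capillary cells, whereas venular cells had 0 UMIs in PBS and 31.0 CPM in CFA. That was at least 7.22-fold higher with PBS set at 3 UMIs, and at least 5.68-fold by the exact conditional limit. Those venular UMIs lay in 2 of 127 CFA cells, and the capillary ratio of Alpl was 1.35 in members under 1% other-cell markers and 1.05 in members with 2000 to 8000 UMIs. The summed cell cycle list had 0.693 (0.630 to 0.763) in capillary and 1.48 (1.23 to 1.79) in venular cells, and its capillary ratio was 1.02 without the 5% of cells highest in Scrublet score.

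Tnc had 0.115 (0.0720 to 0.175) in capillary, 1.70 (1.07 to 2.80) in venular and 1.64 (1.36 to 1.98) in arterial cells, with capillary UMIs in 50 PBS and 14 CFA cells. Egfem1 had 0.0748 (0.0366 to 0.137) in capillary and 1.54 (1.08 to 2.18) in arterial cells, with capillary UMIs in 37 PBS and 7 CFA cells. The remaining 3 comparisons rested on single CFA cells of the capillary class. Bglap had a ratio of 21.8 in capillary and 0.124 in arterial cells, Bglap2 10.5 and 0.159, and Sema3d 5.70 and 0.0868. At least 91.9% of their CFA capillary UMIs lay in 1 cell.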

How the results depend on the processing

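Over 17 alternatives the summed ratio of the guanylate-binding protein and GTPase list ran from 1.88 to 2.67, that of MHC class I from 1.78 to 2.19, that of the basement membrane from 0.466 to 0.562 and that of lipid uptake and storage from 0.722 to 0.951, so each kept its direction. No alternative left out Fabp4, which carried the lower lipid sum. Of 677 values for named genes, 522 stayed within the counting interval, 114 moved out of it and 41 changed direction. They cover genes ranked in all members and genes the study names, outside the rule and above 0 in both libraries. The ratios of other genes, such as Bmp6, Cldn5 and Zbtb16, are not part of this count. Of 255 values for other lists, these numbers were 196, 54 and 5. The shares of cells with a UMI of Gbp4, H2-K1, Sparc and Cd36 moved in all 16 values at other thinning depths, and those of other genes were not varied here. For the values that follow, the cause was not tested unless stated.

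With no hemoglobin limit the ratio of the capillary share was 1.17 among kept and 1.33 among endothelial cells. The list ratios were 2.67 for the GTPases, 2.19 for MHC class I, 0.562 for basement membrane, 0.951 for lipid, 1.10 for type I interferon, 1.05 for adhesion and 1.05 for flow response, and Car2 had 0.974. With the gate on cells thinned to 2000 UMIs, the share ratios were 0.809 and 0.891, basement membrane 0.542, lipid 0.722, Car1 0.457, Bglap 0.336, Bglap2 0.115, Car2 0.249, Sema3d 0.343, Col2a1 2.46 and Vcam1 1.25.

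With each cell thinned to 1000 UMIs, 386 genes were higher and 497 lower, and the ratios were 1.88 for the GTPases, 1.85 for MHC class I, 0.497 for basement membrane, 0.769 for lipid, 0.293 for Car2, 0.684 for Phex, 0.342 for Sema3d, 1.03 for Comp and 0.991 for Slc1a1. With a mean of at least 5 CPM more genes entered and 481 were higher and 825 lower, and with at least 50 CPM fewer entered and 142 were higher and 129 lower.

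As a mean over cells, the ratios were 1.92 for the GTPases, 1.86 for MHC class I, 0.502 for basement membrane, 0.99999 for interferon receptors and signalling, 0.544 for Car2 and 0.891 for Sema3d. With the total taken without mitochondrial, ribosomal protein, hemoglobin and rule genes, they were 1.86 for MHC class I, 0.508 for basement membrane and 0.735 for lipid. With median-ratio scaling the counts of genes past 2-fold were 210 and 319. Without the 5% of cells highest in Scrublet score, which took out 17 PBS and 11 CFA members, they were 0.466 for basement membrane, 0.745 for lipid, 1.02 for the cell cycle list and for Mki67, 0.379 for Bglap, 0.256 for Bglap2, 0.709 for Phex, 0.546 for Sema3d and 0.288 for Ibsp. With a sum of Car4, Gpihbp1 and Timp4 of at least 1, lipid had 0.769.

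The next 3 alternatives were chosen after seeing the data. Without each gene's highest cell in each library, basement membrane had 0.479, Car1 0.365, Bglap 0.388, Bglap2 0.301, Car2 0.182, Sema3d 0.625 and Col2a1 3.22, and here the removed cell is the cause by construction. In members under 1% other-cell markers the GTPases had 2.07, basement membrane 0.498, lipid 0.732, Bglap 0.491, Bglap2 0.407, Tnn 1.02, Comp 1.16, Col2a1 3.12 and Alpl 1.35. In members with 2000 to 8000 UMIs the GTPases had 1.89, MHC class I 1.78, basement membrane 0.508, lipid 0.731, Car1 0.223, Bglap 0.343, Bglap2 0.176, Car2 0.106, Sema3d 0.487, Col9a1 2.01, Col2a1 2.29 and Alpl 1.05.

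No paired analysis was possible because each condition had 1 library. For the same reason animal, injection, digestion, CD45 depletion and library preparation cannot be told apart from the treatment. PBS members were deeper than CFA members, and the gate uses UMIs as counted, so it depends on depth. RNA of other cells was present in both libraries, in unequal amounts.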

Other observations

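The genes below were chosen after their values were seen. Zbtb16, a transcription factor that glucocorticoids induce in many cells, rose from 320 to 1784 CPM in the capillary cells, a ratio of 5.58 (5.20 to 6.00). It rose from 65.8 to 252 CPM in venular cells, from 242 to 1077 in arterial cells and from 143 to 432 in fibroblasts. Zbtb16 was detected in 65.6% of PBS and 93.4% of CFA capillary cells, and in 27.9% and 80.4% after thinning, against 13.4% and 35.7% of thinned fibroblasts. Fkbp5, another such gene, lay at 42.9 CPM in PBS and 190.4 in CFA fibroblasts. Of other genes that glucocorticoids induce in many cells, Tsc22d3 lay at 184 and 276 CPM, Klf9 at 386 and 621, Per1 at 39.7 and 59.0 and Sgk1 at 515 and 305 in the capillary cells, while Ddit4 rose from 58.5 to 152.

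Xdh, xanthine dehydrogenase, rose from 386 to 1839 CPM, a ratio of 4.77 (4.46 to 5.10), and was found in 76.7% and 94.2% of capillary cells, and in 34.8% and 80.3% after thinning, against 8.72% and 17.1% of thinned fibroblasts. It rose from 109 to 371 CPM in venular and from 241 to 759 in arterial cells. Cd274, which encodes PD-L1, rose from 77.6 to 316 CPM, a ratio of 4.07 (3.50 to 4.74), and Herc6, a ligase for ISG15, from 74.4 to 268. Cdkn1a, which encodes p21, lay at 483.5 and 809 CPM. Of the clock genes, Nr1d2 rose from 7.09 to 36.8 CPM, Nr1d1 had 4 UMIs in PBS and 13 in CFA, and Dbp had 11 and 2.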
